A study of Mus musculus with 3 samples.

Results

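The 8 genes described here encode the ion channels and exchangers of the photoreceptor plasma membrane, chosen by name: the cone channel subunits Cnga3 and Cngb3, the rod channel subunits Cnga1 and Cngb1, the exchangers Slc24a1 and Slc24a2, and the potassium channel subunits Kcnv2 and Kcne2. All 8 are among the 31053 genes of the count table. They were measured in single GFP-positive cells from dissociated mouse retina, sorted into wells of 1 plate per mouse line and sequenced with a method adapted from SMARTseq2 and MARS-seq. Each of the 3 plates is 1 library. The name of the wildtype library is Chrnb4-GFP, a reporter active in cones. The Cnga3-/- library came from mice lacking the principal subunit of the cone channel, which is 1 of the 8 genes. The Pde6ccpfl1 library came from the cpfl1 line, in which Pde6c, encoding the cone phosphodiesterase, is mutated. The names of the mutant libraries also carry GFP, but the labels do not say which reporter drove it, and the number of mice behind each plate is not given in the labels. All 3 libraries are labelled postnatal day 12, while the well names carry the tags P11 in wildtype, P08 in Cnga3-/- and P10 in Pde6ccpfl1, whose meaning is not stated.

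In darkness, cyclic GMP holds the cyclic nucleotide-gated channel of the outer segment open, and sodium and calcium flow in. Light activates a phosphodiesterase that breaks down cyclic GMP, and the channel closes. The exchangers of the SLC24 family remove calcium in return for sodium, using the potassium gradient as well. Cones and rods use separate channel subunits, Cnga3 with Cngb3 in cones and Cnga1 with Cngb1 in rods, and largely separate exchangers, among them Slc24a2 in cones and Slc24a1 in rods. Loss of either cone subunit abolishes or impairs cone vision. Kcnv2 is a silent subunit that modifies a potassium channel of the inner segment, and Kcne2 is a small accessory subunit of potassium and HCN channels.

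The subunits of each pair are related, so their closest coding stretches show how far reads of one could be taken for the other. For each pair of paralogs, the most alike stretch of 60 coding bases within 1 exon follows, from the GENCODE M21 transcripts on GRCm38, with differing bases in capitals. The first pair is exon 7 of Cnga3 (chr1:37261719-37261778, plus strand) and exon 9 of Cnga1 (chr5:72604448-72604507, minus strand).
Cnga3: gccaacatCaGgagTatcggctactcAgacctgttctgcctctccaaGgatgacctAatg
Cnga1: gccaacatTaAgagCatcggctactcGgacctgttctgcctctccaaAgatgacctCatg
The second is exon 10 of Cngb3 (chr4:19396690-19396749, plus strand) and exon 25 of Cngb1 (chr8:95257890-95257949, minus strand).
Cngb3: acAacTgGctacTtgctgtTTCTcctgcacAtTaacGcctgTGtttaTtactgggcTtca
Cngb1: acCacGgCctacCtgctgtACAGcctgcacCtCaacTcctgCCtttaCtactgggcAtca
The third is exon 9 of Slc24a1 (chr9:64926171-64926230, minus strand) and exon 9 of Slc24a2 (chr4:86996515-86996574, minus strand).
Slc24a1: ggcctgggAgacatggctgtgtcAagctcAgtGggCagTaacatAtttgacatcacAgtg
Slc24a2: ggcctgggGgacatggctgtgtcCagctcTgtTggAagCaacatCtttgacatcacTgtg
Even there, the members of a pair differed at 6 bases (Cnga3 and Cnga1), 15 bases (Cngb3 and Cngb1) and 8 bases (Slc24a1 and Slc24a2). The longest run that coding sequences of a pair shared was 20, 18 and 14 bases in the same order. No stretch of 50 bases was shared between transcripts of any of the 8 genes. With transcripts of other genes, Cnga3 shared 0.125% of its 50-base stretches, Cnga1 0.160% and Cngb1 0.188%, and the other 5 genes shared none. In the annotation, no exon of another gene overlapped an exon of the 8. The read length is not given in the sources used here.

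Of 208 wells, 183 were kept: 52 wildtype, 70 Cnga3-/- and 61 Pde6ccpfl1. Kept wells had 500 or more genes counted, and mitochondrial genes made up no more than 30% of their counts. The libraries held 273080, 335499 and 295011 counts, with medians of 4895, 4056.5 and 3796 per well, so that 1 count stood for 3.66, 2.98 and 3.39 CPM, the count scaled to library size. With 1 library per genotype nothing could be tested between genotypes, genotype cannot be told apart from plate, and wells are not replicates of a genotype. Intervals are given at 95% and reflect counting error alone. The cone label was checked with 10 cone markers that are not among the 8 genes. They summed to 32 counts in wildtype, where Opn1sw, Gnat2, Gngt2 and Pde6c had 0, against 241 in Cnga3-/- and 218 in Pde6ccpfl1, where Rxrg alone had 0. Pde6c itself had 0, 5 and 2 counts. Markers of other retinal cells were counted too: 42, 27 and 18 counts for Muller glia and 104, 94 and 96 for horizontal cells. Rod markers had 109, 284 and 209 counts, bipolar markers 39, 56 and 46, and amacrine markers 33, 36 and 30. Ganglion cell markers had 17, 26 and 23, endothelium and pericytes 48, 38 and 34, microglia 10, 13 and 11, and pigment epithelium 2, 6 and 9. In wildtype the cone markers had fewer counts than the rod or horizontal markers, so they did not bear out the cone label there. In Cnga3-/- they also had fewer counts than the rod markers, 241 against 284, and in Pde6ccpfl1 the counts were close, 218 against 209. The cone markers thus did not set the mutant wells apart from rods by count either.

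Counts recurred at the same well positions in all 3 plates. Over the 43 positions kept in all 3, the profile of each well was best matched by the well at the same position of the other plate, for 43 of 43 wells in each pair of plates. The median correlation across 2365 genes was 0.170, 0.153 and 0.177 at the same position in the 3 pairs, and under 0 at other positions. Of 1911 genes with at least 10 counts in each plate and a single highest well in each, 84.9% had that well at the same position in all 3 plates. Among 1725 genes whose counts lay in the range of the 5 better counted of the 8 genes, the share was 73.6%. Ratios of the channel and exchanger genes are therefore also given without the position that held most counts of the gene, a measure chosen after seeing the data, and the cause of the position pattern was not tested. Leaving out that position does not remove the pattern at the other positions.

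Together the 8 genes had 240 counts in the kept wells: 80 in wildtype, 90 in Cnga3-/- and 70 in Pde6ccpfl1, which is 0.0293%, 0.0268% and 0.0237% of each library. At least 1 of them was counted in 30 of 52, 37 of 70 and 35 of 61 wells, and no well held more than 3 of them. Slc24a2 had the most counts (81), followed by Slc24a1 (42), Cnga3 (38), Kcne2 (28), Cngb1 (24), Kcnv2 (11), Cnga1 (10) and Cngb3 (6). The first 5 reached 20 counts over the libraries and were set against all genes that did. All 3 pairs of libraries were compared, and both mutant comparisons share the wildtype library.

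Cnga3, the cyclic GMP-binding principal subunit of the cone channel (chromosome 1, 37214434 to 37263384, plus strand, GRCm38), had 22 counts in the wildtype library, 13 in Cnga3-/- and 3 in Pde6ccpfl1. In the same order its level was 80.6 CPM (50.5 to 122), 38.7 (20.6 to 66.3) and 10.2 (2.10 to 29.7). The targeted gene was thus counted in the Cnga3-/- library. The table counts whole genes and does not show whether those reads lie in the deleted part, so the count does not check the genotype label. Counts were held by few wells: 8 of 52 in wildtype, 8 of 70 in Cnga3-/- and 2 of 61 in Pde6ccpfl1. A single position, A06, was the highest in each of the 3 plates, with 13, 6 and 2 counts. That position held 55.3% of all Cnga3 counts. Elsewhere 9, 7 and 1 counts remained, and no other well held more than 2. Between Pde6ccpfl1 and wildtype the log2 ratio was -2.99 (-5.37 to -1.25) with all kept wells and -3.32 (-8.77 to -0.47) without position A06. Without the 5 deepest wells of each library it was -1.50 (-4.05 to 0.56), from 3 against 8 counts, where the interval includes 0, and the mean of CPM over wells gave -1.96. Between Cnga3-/- and wildtype it was -1.06 (-2.17 to -0.0030) with all kept wells, -0.97 (-2.09 to 0.08) with TMM scaling and -0.68 (-2.34 to 0.91) without A06. Only the first of these intervals leaves out 0. Without the 5 deepest wells, which took the A06 well from wildtype and not from Cnga3-/-, the Cnga3-/- value turned to 0.38 (-1.002 to 1.85), from 13 against 8 counts. Between Pde6ccpfl1 and Cnga3-/- the log2 ratio was -1.93 (-4.38 to -0.07), and without A06 it was -2.64 (-8.13 to 0.32). The A06 well held 1 count of the cone markers in wildtype and 15 in Cnga3-/-.

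**Figure D1:**
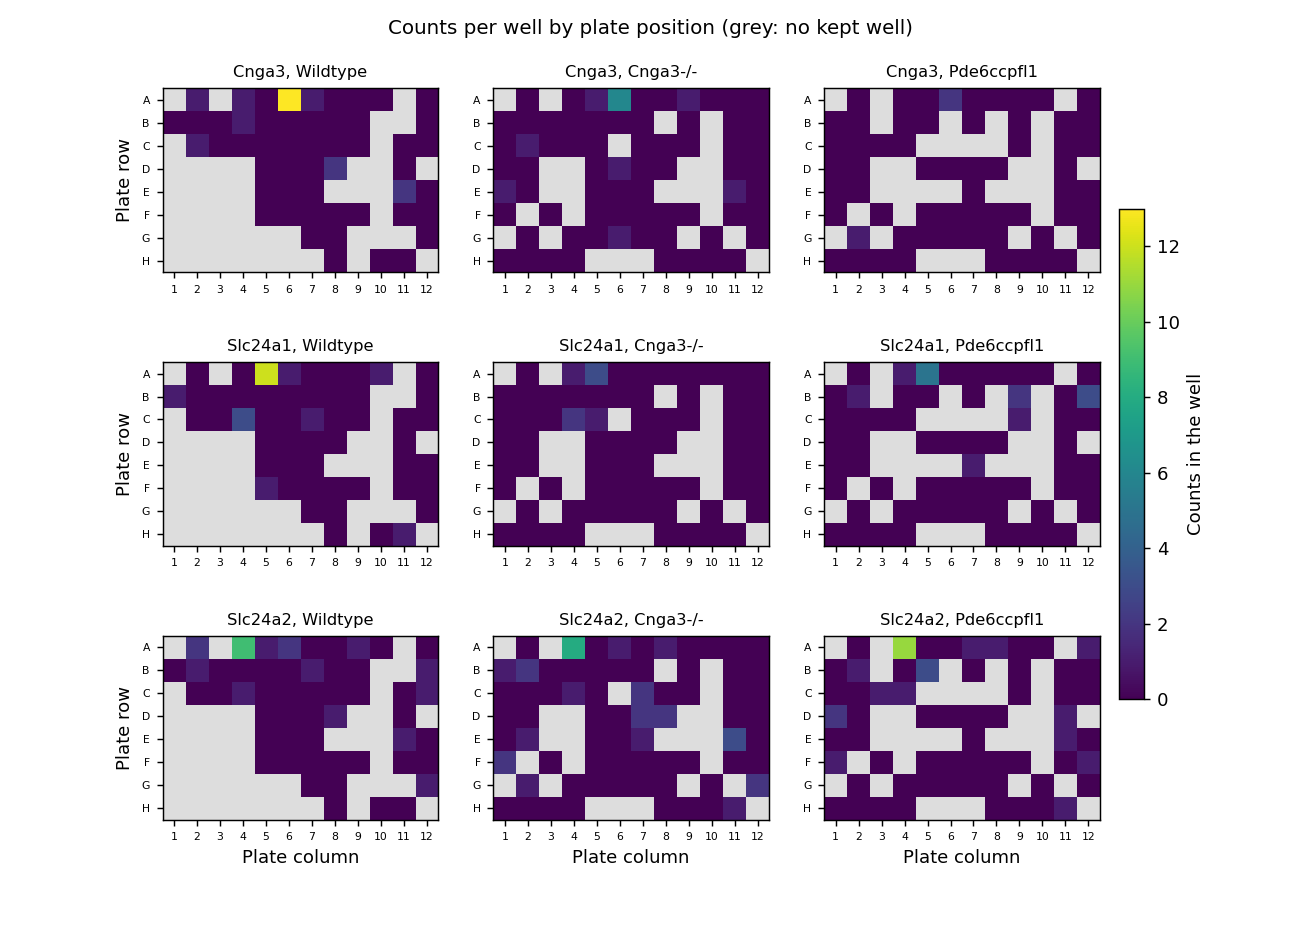
Counts per well of Cnga3, Slc24a1 and Slc24a2 (rows of panels) at each plate position in the wildtype, Cnga3-/- and Pde6ccpfl1 plates (columns of panels); colour gives the count in the well and grey marks positions with no kept well. The brightest well of each gene lies at the same position in all 3 plates: A06 for Cnga3 (13, 6 and 2 counts), A05 for Slc24a1 (12, 3 and 5) and A04 for Slc24a2 (9, 8 and 11).

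Cngb3, the modulatory subunit that joins Cnga3 in the cone channel (chromosome 4, 19280850 to 19510623, plus strand), was counted in 1 library. It had 6 counts in Cnga3-/- (17.9 CPM, 6.56 to 38.9), spread over 5 of 70 wells, and 0 counts in wildtype and in Pde6ccpfl1. The upper end of the interval for 0 counts is 13.5 CPM in wildtype and 12.5 CPM in Pde6ccpfl1, so the 3 intervals overlap. Set against a floor of 3 counts, 10.99 and 10.2 CPM, Cngb3 in Cnga3-/- was at least 1.63-fold higher than in wildtype and at least 1.76-fold higher than in Pde6ccpfl1, without the counting error of the 6 counts. Without position A07, which held 2 of them, the log2 bounds of 0.70 and -0.81 for Cnga3-/- over wildtype and Pde6ccpfl1 over Cnga3-/- shrank to 0.12 and -0.25. All 5 wells with Cngb3 also had a count of another cone marker, as did 53 of the 65 Cnga3-/- wells without Cngb3. The wells with Cngb3 were deeper, with a median of 6986 counts against 3929. With counts in 1 library, no position could repeat between plates for this gene. Cnga3 and Cngb3, which form 1 channel, were counted together in 1 well of 183. As a pair, the cone channel subunits had 22, 19 and 3 counts in wildtype, Cnga3-/- and Pde6ccpfl1. The log2 ratio of the pair was -0.51 (-1.47 to 0.44) for Cnga3-/- over wildtype and -2.48 (-4.88 to -0.71) for Pde6ccpfl1 over Cnga3-/-. Without A06 these were 0.10 (-1.27 to 1.52) and -3.42 (-8.83 to -0.66), so the first changed sign. The cone markers stood higher in both mutant libraries, with a log2 ratio of 2.62 (2.08 to 3.20) for Cnga3-/- and 2.66 (2.12 to 3.24) for Pde6ccpfl1 over wildtype, and their part in the result was not tested.

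Cnga1, the principal subunit of the rod channel (chromosome 5, 72603696 to 72644275, minus strand), was near the detection limit. It had 1 count in wildtype, 4 in Cnga3-/- and 5 in Pde6ccpfl1, in 1, 4 and 4 wells. The intervals of its level, 0.0927 to 20.4, 3.25 to 30.5 and 5.50 to 39.6 CPM, overlap. Cngb1, the rod subunit that also tethers the channel to the disc rim (chromosome 8, 95239045 to 95306585, minus strand), had 5, 12 and 7 counts in 5, 9 and 7 wells. These gave levels of 18.3 CPM (5.95 to 42.7), 35.8 (18.5 to 62.5) and 23.7 (9.54 to 48.9). No well held more than 2 counts of either rod subunit, and no position held Cngb1 in all 3 plates. The log2 ratio of Cngb1 was 0.97 (-0.64 to 2.82) for Cnga3-/- and 0.37 (-1.50 to 2.37) for Pde6ccpfl1 over wildtype, both with 0 inside the interval, and 1.03 and 0.71 without position B07. Summed, the rod channel subunits had 6, 16 and 12 counts. The 10 rod markers outside the 8 genes had 109, 284 and 209 counts, a log2 ratio of 1.08 (0.76 to 1.42) for Cnga3-/- and 0.83 (0.49 to 1.18) for Pde6ccpfl1 over wildtype. The rod channel had 1.12 (-0.31 to 2.76) and 0.89 (-0.64 to 2.59) in the same comparisons, which was not distinguishable from 0 at this depth. No well held both Cnga1 and Cngb1.

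**Figure D2:**
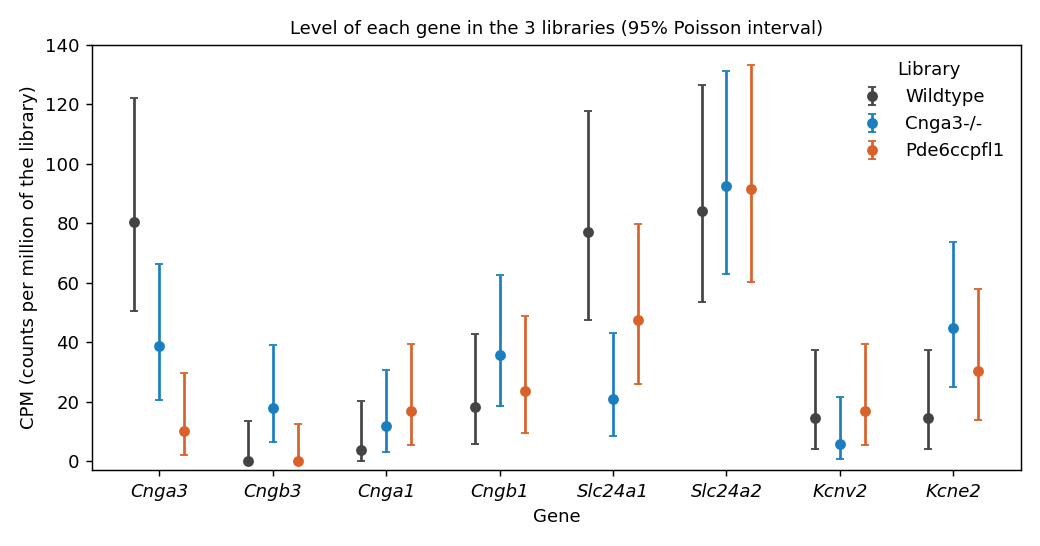
Level of each of the 8 genes in CPM (vertical axis) in the wildtype, Cnga3-/- and Pde6ccpfl1 libraries; points are the summed kept wells and bars the 95% Poisson interval, which covers counting error only. Slc24a2 lies at 84.2, 92.4 and 91.5 CPM, while Cnga3 lies at 80.6, 38.7 and 10.2 CPM and Cngb3 is above 0 in Cnga3-/- alone.

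Slc24a1, the rod exchanger (chromosome 9, 64922861 to 64951607, minus strand), had 21, 7 and 14 counts in the wildtype, Cnga3-/- and Pde6ccpfl1 libraries. The level was 76.9 CPM (47.6 to 118), 20.9 (8.39 to 43.0) and 47.5 (25.9 to 79.6). Position A05 was the highest well in every plate, with 12, 3 and 5 counts, and held 47.6% of the counts. Elsewhere 9, 4 and 9 counts remained. Set against wildtype, Cnga3-/- had a log2 ratio of -1.88 (-3.36 to -0.59), and without A05 it was -1.49 (-3.65 to 0.35), where the interval includes 0. For Pde6ccpfl1 over wildtype it was -0.70 (-1.78 to 0.35), and without A05 -0.13 (-1.64 to 1.37). In the wildtype A05 well the rod markers had 11 counts and the cone markers 1, and in the A05 wells of Cnga3-/- and Pde6ccpfl1 the rod markers had 11 and 5.

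Slc24a2, a cone exchanger (chromosome 4, 86983124 to 87230477, minus strand), had summed levels close to each other in the 3 libraries. Its counts were 23, 31 and 27 in the 3 libraries, from 13, 16 and 14 wells. Its level was 84.2 CPM (53.4 to 126), 92.4 (62.8 to 131) and 91.5 (60.3 to 133), and the 3 intervals overlap almost fully. The log2 ratio over wildtype was 0.13 (-0.69 to 0.98) in Cnga3-/- and 0.12 (-0.74 to 0.99) in Pde6ccpfl1, intervals that span differences up to nearly 2-fold higher. Position A04 was again the highest in all 3 plates, with 9, 8 and 11 counts, and held 34.6% of the counts. Without it, 14, 23 and 16 counts remained, and the log2 ratios were 0.40 (-0.62 to 1.47) and 0.06 (-1.07 to 1.21). Without the 5 deepest wells they were 0.79 (-0.24 to 1.91) and 0.91 (-0.14 to 2.05). The mean of CPM over wells gave 0.70 and 1.26. Wells thinned to 1400 counts gave 0.30 and 1.05, the latter from 7 against 3 counts. The closeness thus holds for the sum of all kept wells and not for all of these settings. In the A04 wells the rod markers had 13, 7 and 4 counts and the cone markers 0, 5 and 3. Counts at positions B02, C04 and E11 also recurred in all 3 plates. Summed, the exchangers had 44, 38 and 41 counts. Wells with Slc24a2 were deeper than those without, with medians of 7490 against 4075 counts in wildtype, 6528.5 against 3716 in Cnga3-/- and 4654.5 against 3665 in Pde6ccpfl1. With each well thinned to 1400 counts, Slc24a2 was counted in 2 of 48, 5 of 65 and 5 of 54 wells.

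The genes most like Slc24a2 were ranked over the 183 wells among 2293 genes with at least 50 counts. The highest Pearson correlations of log2(CPM + 1) were 0.34 for Kif1b, a kinesin that carries vesicles and mitochondria, 0.33 for Lifr, the receptor of leukaemia inhibitory factor, and 0.31 for Ift122, a part of the ciliary transport complex. Of the 39 wells with Kif1b, 21 also had Slc24a2. The values are a description, since wells share depth and position effects, and the median over all ranked genes was 0.07. Among the other 7 channel and exchanger genes, the correlation with Slc24a2 ran from -0.10 for Kcne2 to 0.13 for Cnga3.

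Kcnv2, the silent potassium channel subunit (chromosome 19, 27322588 to 27337179, plus strand), had 4, 2 and 5 counts in 3, 2 and 5 wells. Its level was 14.6 CPM (3.99 to 37.5), 5.96 (0.722 to 21.5) and 16.9 (5.50 to 39.6), with overlapping intervals. Kcne2, the accessory subunit (chromosome 16, 92292389 to 92298129, plus strand), had 4, 15 and 9 counts in the 3 libraries, from 4, 10 and 8 wells. Its level was 14.6 CPM (3.99 to 37.5), 44.7 (25.02 to 73.7) and 30.5 (13.9 to 57.9). The log2 ratio over wildtype was 1.61 (-0.04 to 3.66) in Cnga3-/- and 1.06 (-0.78 to 3.21) in Pde6ccpfl1, both with 0 inside the interval. No well held more than 3 counts of Kcne2. Only E12 held it in all 3 plates, with 1, 2 and 2 counts, and without E12 the log2 ratios were 1.82 (-0.05 to 4.27) and 1.11 (-1.02 to 3.70).

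Genes apart by a factor of 2 or more were counted among the 5 with at least 20 counts. Between Cnga3-/- and wildtype, 1 of the 5 (Kcne2) was that much higher and 2 (Cnga3 and Slc24a1) that much lower, where 16.1% of 5995 genes with at least 20 counts were higher and 13.6% lower. Among those with 24 to 81 counts, the range of the 5, the shares were 16.5% and 14%. Between Pde6ccpfl1 and wildtype, 1 (Kcne2) was higher and 1 (Cnga3) lower, where 15.2% of 5994 genes were higher and 15.7% lower, or 15.5% in each direction in the same count range. Between Pde6ccpfl1 and Cnga3-/-, 1 (Slc24a1) was higher and 1 (Cnga3) lower, where 9.01% of 5995 genes were higher and 12.4% lower, or 9.07% and 12.5% in the same count range. The median log2 ratio of the 5 genes was 0.13, 0.12 and -0.55 in these comparisons, and that of all genes -0.13, -0.11 and 0.00112. With 5 genes, each share moves in steps of 20%.

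**Figure D3:**
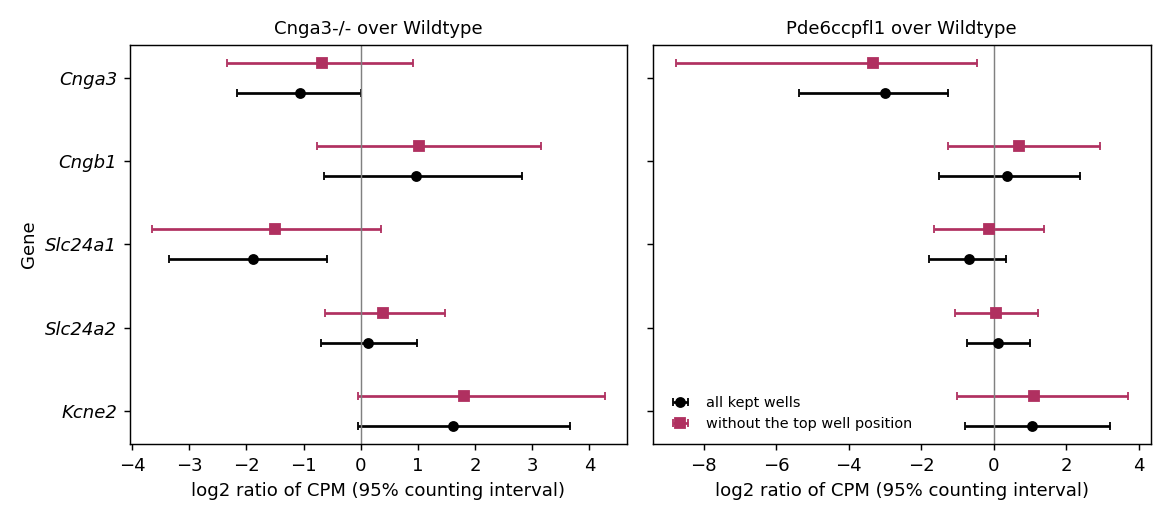
Log2 ratio of CPM (horizontal axis) of Cnga3-/- over wildtype (left) and Pde6ccpfl1 over wildtype (right) for the 5 genes with at least 20 counts; black circles use all kept wells, red squares leave out, in all 3 plates, the position with the most counts of that gene, and bars are 95% counting intervals. Without that position the intervals of Cnga3 and Slc24a1 in Cnga3-/- include 0. That of Cnga3 in Pde6ccpfl1 (-8.77 to -0.47) does not, from 1 count in Pde6ccpfl1 against 9 in wildtype. Without the 5 deepest wells, which is not drawn, the latter is -4.05 to 0.56.

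Levels of different genes were compared per kilobase of exon. Whether reads cover whole transcripts was not tested, and the order of genes and the reference comparison below rest on dividing by exon length. Without this scaling Slc24a2 led in every library, with 84.2, 92.4 and 91.5 CPM in wildtype, Cnga3-/- and Pde6ccpfl1, where Kcne2 had 14.6, 44.7 and 30.5. Kcne2, the shortest of the 8 with 1.767 kilobases of exon, had 8.29, 25.3 and 17.3 CPM per kilobase in wildtype, Cnga3-/- and Pde6ccpfl1. Cnga3 had 20.4, 9.79 and 2.57, Slc24a1 14.8, 4.002 and 9.10, and Slc24a2 6.89, 7.56 and 7.49. Cngb1, Cnga1, Kcnv2 and Cngb3 lay between 0 and 3.82 in every library. Within wildtype, Cnga3 led, followed by Slc24a1, Kcne2 and Slc24a2, and the intervals of Cnga3 (12.8 to 30.8) and Slc24a1 (9.13 to 22.5) overlap. Within Cnga3-/- and Pde6ccpfl1 Kcne2 led, with 14.2 to 41.7 and 7.89 to 32.8, and its interval overlaps that of the next gene, Cnga3 in Cnga3-/- (5.21 to 16.7) and Slc24a1 in Pde6ccpfl1 (4.98 to 15.3). Without the top position of each gene, wildtype Cnga3 had 8.65 (3.96 to 16.4), Slc24a1 6.54 (2.99 to 12.4) and Slc24a2 4.36 (2.39 to 7.32). As a reference, 1133 olfactory receptor genes, known for their role in the nose, summed to 4.51, 3.61 and 4.17 CPM per kilobase. Of the 1133 genes, 589, 509 and 585 had 0 counts in wildtype, Cnga3-/- and Pde6ccpfl1. The rod channel subunits together had 1.40 (0.514 to 3.05), 3.04 (1.74 to 4.94) and 2.59 (1.34 to 4.53). In wildtype that interval lies below the olfactory receptor level of 4.51, and in Cnga3-/- and Pde6ccpfl1 it includes the level of 3.61 and 4.17. Read gene by gene, Cngb1 was higher than 73.7%, 84.1% and 77.7% of the olfactory receptor genes, and Cnga1 higher than 53.3%, 70.8% and 79.1%. These shares include the olfactory receptor genes at 0, which any gene with 1 count exceeds, as wildtype Cnga1 did with 1 count. The cone channel subunits had 9.30 (5.83 to 14.1), 6.54 (3.93 to 10.2) and 1.17 (0.242 to 3.43). Without position A06 they had 3.95 (1.81 to 7.50), 4.23 (2.18 to 7.38) and 0.396 (0.0100 to 2.21), where the first 2 intervals include the level of the olfactory receptor genes without A06, 4.52 and 3.64. In Pde6ccpfl1 the interval of the cone channel subunits lay below the olfactory receptor level both with A06 (4.17) and without it (4.19). The exchangers had 9.24 (6.72 to 12.4), 6.50 (4.60 to 8.92) and 7.97 (5.72 to 10.8), and without position A04 7.65 (5.33 to 10.6), 5.08 (3.40 to 7.29) and 5.78 (3.87 to 8.30). Position A05, with 12, 3 and 5 counts of Slc24a1, was still included in these values. The cone markers stood at 3.40 (2.32 to 4.80), 20.8 and 21.4, and without A06 at 3.42, 20.0 and 21.5. Their wildtype interval includes the olfactory receptor level of 4.51. The cone channel subunits lay below the cone markers in both mutant libraries with and without A06. In wildtype they lay above them with A06 and not apart from them without it.

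**Figure D4:**
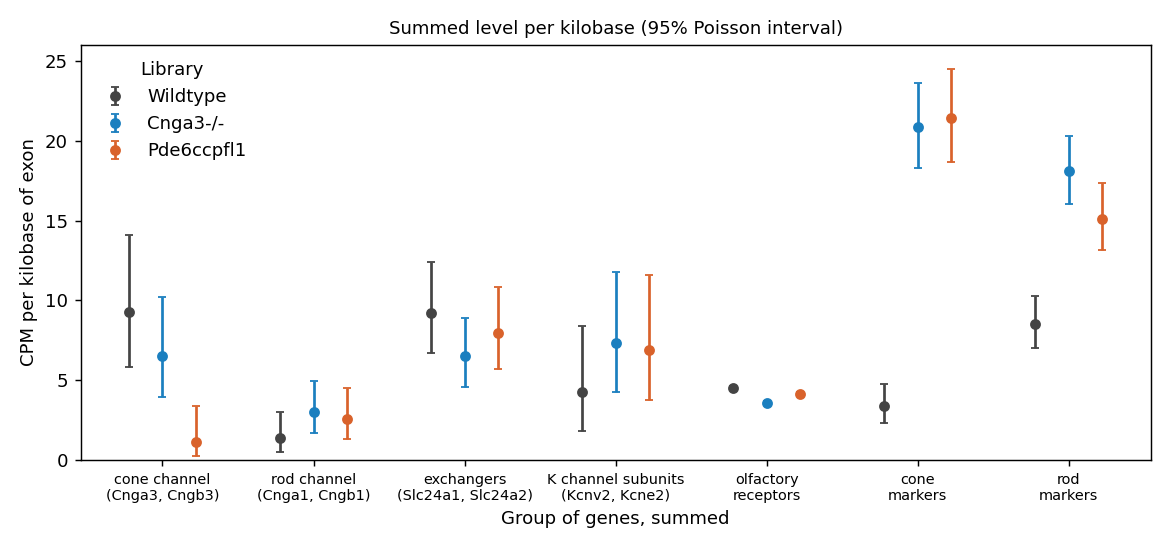
Summed level per kilobase of exon (vertical axis, CPM per kilobase) of the 4 groups of channel and exchanger genes, of olfactory receptor genes and of cone and rod markers, by library; bars are 95% Poisson intervals. Cone markers lie at 3.40 in wildtype and at 20.8 and 21.4 in the mutant libraries, while the cone channel subunits lie at 9.30, 6.54 and 1.17.

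Genes of the same pathway were described with 7 related lists. In the list of cyclic GMP synthesis and hydrolysis, 8 of 10 genes reached 20 counts. Against wildtype, 3 were 2-fold or more higher and 0 lower in Cnga3-/-, and 4 higher and 1 lower in Pde6ccpfl1. The shares over all genes given above were 16.1% higher and 13.6% lower in Cnga3-/-, and 15.2% and 15.7% in Pde6ccpfl1. Pde6g, the inhibitory subunit of the rod phosphodiesterase, had 1, 50 and 45 counts in wildtype, Cnga3-/- and Pde6ccpfl1. Guca1a, which activates guanylate cyclase when calcium falls, had 1, 15 and 18. Pde6h, the cone inhibitory subunit, had 16, 56 and 43, and Pde6a, a rod catalytic subunit, had 42, 34 and 21. Pde6a and Pde6g are also among the rod markers, and Pde6h among the cone markers.

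For calcium extrusion, 5 of 11 genes reached 20 counts, of which 1 was 2-fold or more higher and 0 lower in Cnga3-/-, and 1 higher and 1 lower in Pde6ccpfl1, than in wildtype. Each is 1 gene of 5, near the 16.1% and 15.2% higher, and the 15.7% lower, among all genes. The sodium-calcium exchanger Slc8a3 had 1, 23 and 23 counts, of which 8 and 9 were at position H04, a position not kept in wildtype. The calcium pumps Atp2b1 and Atp2b2 had 17, 30 and 17 counts and 21, 35 and 37. Of the Atp2b2 counts, 19 and 14 were at position D01, not kept in wildtype, and elsewhere it had 21, 16 and 23. From the sodium pump list, Atp1b2, a beta subunit, had 26, 59 and 37 counts, and 14, 54 and 26 without position A02.

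From the list of other cyclic nucleotide-gated and HCN channels, Hcn4, a pacemaker channel, had 5, 11 and 1 counts in wildtype, Cnga3-/- and Pde6ccpfl1. These 17 counts are under the minimum of 20. Of the 11, 5 were at position E05, not kept in Pde6ccpfl1, and elsewhere Hcn4 had 4, 6 and 1. Of 11 measured genes in the potassium channel and KCNE list, 6 had at least 20 counts and 2 of these were at least 2-fold higher in Cnga3-/- and 1 in Pde6ccpfl1, beside 16.1% and 15.2% of all genes. Kcnq5 had 6, 77 and 83 counts, of which 41 and 36 were at position H01, not kept in wildtype. At other positions it had 6, 36 and 47. Kcne4, a relative of Kcne2, had 68, 71 and 55 counts, with its highest well at F08 in all 3 plates. Kcnq1, a channel that KCNE subunits join, had 64, 55 and 61, with its highest well at B04 in all 3.

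The list of the synaptic calcium channel, which drives transmitter release at the photoreceptor terminal, stood lower in Pde6ccpfl1 than in Cnga3-/- for 3 of 5 genes by at least 2-fold, beside 12.4% of all genes. Cabp4, a calcium-binding regulator of that channel, had 49, 92 and 27 counts, a log2 ratio of -1.58 (-2.26 to -0.95) for Pde6ccpfl1 over Cnga3-/-. Its highest well was at C03 in all 3 plates, with 11, 39 and 7 counts, and without C03 the log2 ratio was -1.23 (-2.05 to -0.47). Cacna2d4, its auxiliary subunit, had 11, 29 and 6, with 9 of the 29 at B03, which was not kept in Pde6ccpfl1. Among outer segment partners of the channels, Prph2, the disc rim protein that binds the rod channel, had 2, 18 and 15 counts.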

How the data were processed

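The authors deposited 1 table of raw read counts, with genes in rows and wells in columns. Per the submitters' processing notes, featureCounts was used and the build GRCh38 is named. GRCh38 is a human assembly while the table lists mouse symbols, so positions and exon lengths were taken from GENCODE M21 (GRCm38), which matched 30416 (97.9%) of the genes. The aligner and the handling of molecular identifiers are not given in the sources used here, so counts may not be independent molecules. Wells were assigned to libraries by the library name in the column, and 25 wells failed the filter. Counts of kept wells were summed per library and scaled as CPM, with exact Poisson intervals (scipy 1.17.1). Log2 ratios have exact 95% intervals conditional on the total. Against a library with 0 counts, ratios used 3 counts as a floor, and no ratio was given where both libraries had 3 counts or fewer. The interval script was tested on simulated independent Poisson counts, the model that the intervals assume. That does not test them for counts held by few wells. No doublet caller was run. Alternatives covered well filters, scaling (TMM from edgeR 4.0.16, median of ratios, mean over wells), thinning and single wells or positions. From related lists, the 2 genes with the most counts and those at least 4-fold apart with at least 20 counts were named. Some genes that this rule names are not reported here. The genes, lists and tests were chosen with earlier results of these data known.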

Additional observations from a re-analysis of the deposited data

Results flagged for a closer look

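Slc24a2 had 6 counts in the 6 Cnga3-/- wells that the well filter left out, all in 1 well, above the 3 counts that a count of 0 allows. The wells left out of the wildtype and Pde6ccpfl1 plates had 0 counts of Slc24a2.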

How the results depend on the processing

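No paired analysis was possible because each genotype has 1 library. The log2 ratios of the 4 groups of genes stayed inside their intervals under either other well filter, TMM, median of ratios, removal of the most abundant genes, and removal of the top well or position. Other settings moved some of them. For the cone channel, Cnga3-/- over wildtype went from -0.51 to 0.93 without the 5 deepest wells of each library and to 1.88 with wells thinned to 1400 counts (5 against 1 counts). For the exchangers, Pde6ccpfl1 over wildtype went to 0.62 with the mean over wells, and Pde6ccpfl1 over Cnga3-/- to 1.00 with thinning. For the potassium channel subunits, thinning gave -2.17 for Pde6ccpfl1 over wildtype and -2.05 over Cnga3-/-, each from 1 count. For single genes, Cnga3 in Cnga3-/- over wildtype reversed to 0.38 without the 5 deepest wells. Slc24a2 in Pde6ccpfl1 over wildtype went from 0.12 to 1.05 with thinning and 1.26 with the mean over wells. The Cngb3 bounds went from 0.70 to 0.11 and from -0.81 to -0.21 without the top well. The cause was not tested, and thinning leaves few counts by its construction.

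The number of genes at least 2-fold apart depends on the count minimum. With at least 10 counts it was 1795 higher and 1603 lower in Cnga3-/- over wildtype, 1663 and 1786 in Pde6ccpfl1 over wildtype, and 1143 and 1511 in Pde6ccpfl1 over Cnga3-/-. With at least 50 counts it was 357 and 284, 339 and 367, and 167 and 270. With at least 20 counts it was 965 and 814, 909 and 939, and 540 and 741. Over the 43 shared positions it was 603 and 482, 569 and 695, and 475 and 591, a measure added after seeing the data that by its construction tests fewer genes.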
